A study of Mus musculus with 4 samples.

Results

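Endothelial cells of the postnatal dorsal ventricular-subventricular zone (V-SVZ) were described in single-cell RNA sequencing data. The V-SVZ is the germinal layer that lines the lateral ventricle of the mouse forebrain. Endothelial cells were chosen by measured values, as barcodes with at least 1 unique molecular identifier (UMI, the tag that counts each captured RNA molecule once) of both Cldn5 and Flt1 and with no UMI of Cx3cr1 or Dcx. Cldn5 encodes the main claudin of brain endothelial tight junctions and Flt1 a VEGF receptor, whereas Cx3cr1 marks microglia and Dcx marks neuroblasts. Of 21670 barcodes with 1000 to 8000 detected genes and under 10% mitochondrial UMIs, 56 met this rule. The remaining 21614 kept cells are called other cells. The tissue was microdissected from wild-type OF1 mice at postnatal day 2 (P2), P12 and P22, dissociated with papain, sorted for viable cells and profiled by 10x Genomics droplet sequencing (3′ chemistry, version 3). There was 1 library at P2, 2 libraries at P12 from independent experiments (replicates 1 and 2) and 1 library at P22, and the labels state that 2 mice were pooled at P2 and at P22. The labels give all mice as male, but the study's methods state that a female was included at P2. Whether each P12 library holds 1 mouse or 2 is not settled by the labels. Since the ages have 1, 2 and 1 libraries, levels at each age were described without a test between ages.

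Endothelial cells form the inner wall of all blood vessels. In the brain they build the blood-brain barrier: tight junctions seal the gaps between cells, dedicated transporters carry glucose, amino acids, lipids and iron, and efflux pumps return foreign compounds to the blood. This state is installed and kept by canonical Wnt signalling, received through Fzd4 and its co-receptors. In the V-SVZ, vessels run close to stem and progenitor cells and are known as a source of secreted and membrane-bound factors, so that endothelial ligands, receptors and matrix genes are of interest as parts of the niche.

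Endothelial cells numbered 2 at P2, 12 and 31 in replicates 1 and 2 of P12, and 11 at P22. This was 0.0477% of 4191 kept cells at P2 (exact Clopper-Pearson 95% interval 0.00578 to 0.172%), 0.151% of 7922 in P12 replicate 1 (0.0783 to 0.264%), 0.606% of 5113 in P12 replicate 2 (0.412 to 0.859%) and 0.248% of 4444 at P22 (0.124 to 0.442%). The shares of both P12 replicates had intervals that did not overlap, so that no order by age was read from these shares. Intervals cover counting error only, and papain dissociation, the sort and the limit on detected genes also set how many endothelial cells enter a library. The median depth of endothelial cells was 16521.5, 10767, 12524 and 6736 UMIs in the order P2, P12 replicate 1, P12 replicate 2 and P22, which is used for all lists of values in 4 libraries. Other cells had medians of 13948, 11020, 13222 and 11580 UMIs. At P22, endothelial cells were thus shallower than other cells. The number of barcodes shared between any 2 libraries was 5 to 12, none of them an endothelial cell in both.

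The choice was checked with 12 further endothelial genes that the rule did not use, from the adhesion gene Pecam1 to the transporter gene Slco1a4, together called the panel. The median endothelial cell held UMIs of 11, 11, 12 and 11 of these genes, and 27 of 56 cells held all 12. Outside the chosen cells, 2, 0, 1 and 2 other kept cells held 5 or more of them. Just inside the rule, 1 cell had a single Cldn5 UMI and 3 cells a single Flt1 UMI. Just outside it, 7, 6, 34 and 7 kept cells had Cldn5 alone, with at most 2 UMIs, and 7, 15, 16 and 15 had Flt1 alone, with at most 4 UMIs. A further 2 cells at P22 held both genes but also Dcx. These values describe the choice of cells and are no test of it.

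Several endothelial cells stood apart from the rest. The number of panel genes was under 8 in 5 cells. Of these, 4 belonged to P12 replicate 2 and held 181 to 595 UMIs of 12 stem cell and astrocyte genes, such as Slc1a3, Fabp7 and Mt3, whereas all other endothelial cells held 0 to 75. The fifth, at P22, had 2436 UMIs in all, of which 44 came from 11 genes of mural cells (pericytes and smooth muscle). In 3 cells, all of P12, hemoglobin genes gave 61.8%, 47.7% and 9.35% of UMIs, and CPM values below are therefore UMIs per 1000000 UMIs outside 5 erythroid genes. At least 2 mural genes were detected in 5 cells, of which 3 were also among those with few panel genes. The 11 mural genes summed to 30.3, 0, 424 and 651 CPM in endothelial cells, against 38.1, 81.6, 95.8 and 73.9 CPM in other cells. Of the 8 microglial genes, C1qa, C1qb, C1qc, Tmem119, P2ry12 and Trem2 had no UMI in any endothelial cell. The 12 stem cell and astrocyte genes summed to 424, 1100, 3540 and 226 CPM in endothelial cells, against 8510, 13465, 18851 and 4834 CPM in other cells. For many of the genes described, the UMIs held by the cells with few panel genes are given beside the level, and the part of other cell types in the results was not tested further.

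**Figure D1:**
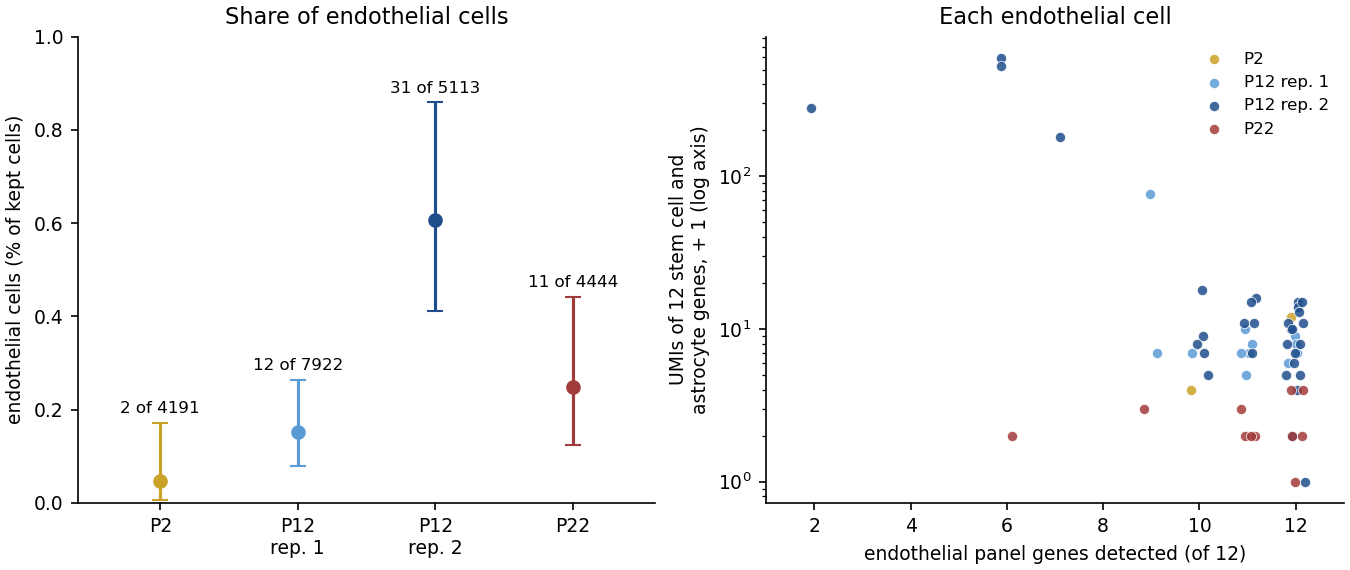
Left, share of endothelial cells among kept cells in each library (%), with exact 95% intervals and the numbers of cells. Right, each of the 56 endothelial cells by the number of panel genes detected (of 12, points spread sideways for visibility) and by its UMIs of 12 stem cell and astrocyte genes plus 1 on a log axis. The 4 cells of P12 replicate 2 with under 8 panel genes lie at the top, with 181 to 595 such UMIs.

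Endothelial cells were then compared with other cells over all genes. UMIs were summed over the endothelial cells and over the other cells of each library, and edgeR's quasi-likelihood test was run on the sums, with the library as a block and Benjamini-Hochberg adjustment over 14796 genes, and a gene was called at an adjusted p under 0.05. The 3 libraries with at least 5 endothelial cells entered this test (54 cells, 6 sums), which leaves 2 residual degrees of freedom, and P2 with its 2 cells did not. In all, 1568 genes (10.6%) were called higher and 1739 genes (11.8%) lower, together 22.4%, against which the counts of the lists below are to be read. The lists overlap, and a gene of several lists counts in each, so that their counts are not independent. The median log2 fold change of all tested genes was -0.40, or -0.09 with genes that have no endothelial UMI set at the bound that a floor of 3 UMIs allows, or at 0 where it allows none. Other scalings placed it at -0.55 and -0.51. The cells were chosen by endothelial genes, so that an excess of further endothelial genes describes what the chosen cells hold. Cldn5, Flt1, Cx3cr1 and Dcx received no test.

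Among genes called higher with the same direction and at least 20 UMIs in every tested library, the 15 with the largest increase had log2 fold changes of 11.79 to 13.47 (±0.57 to 0.85, SE). They were the adhesion receptor genes Adgrl4 and Adgrf5, the junction genes Cdh5 and Icam2, the surface antigen genes Ly6c1 and Ly6a, the efflux pump gene Abcb1a, the transporter genes Slco1a4 and Slc38a5, the transcription factor gene Sox17, the VEGF receptor gene Kdr, the receptor phosphatase gene Ptprb, Nostrin (which regulates nitric oxide synthase), Ctla2a and AU021092. Cdh5, which encodes VE-cadherin, had 242, 524, 484 and 579.8 CPM in endothelial cells, against 0, 0, 0.0771 and 0.0772 CPM in other cells, a log2 fold change of 13.42 ± 0.63 (SE, adjusted p = 7.79e-96, edgeR). It was detected in 47 of 56 endothelial cells and in 0.0324% of other cells. AU021092, a gene without an assigned role here, had 484, 275, 255 and 679 CPM in endothelial cells, against 0.0151, 0, 0.0514 and 0.0926 CPM in other cells (13.06 ± 0.60, SE, adjusted p = 7.42e-99). The rule that chose these 15 genes required a call and the same direction in all 3 tested libraries, so that both are no further result.

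The angiopoietin and VEGF receptors among the panel genes are classical surface markers of endothelium. A promoter window was available for 8 of the 12 panel genes, and the first 4 in the order of the panel are shown. The 300 bases around the start site (250 before to 50 after, RefSeq, GRCm38.p6, printed 5′ to 3′ along the gene) are given for Tek (chr4:94739039-94739338, plus strand), Tie1 (chr4:118489800-118490099, minus strand), Kdr (chr5:75978406-75978705, minus strand) and the sialomucin gene Emcn (chr3:137340828-137341127, plus strand). Capitals mark the letters AGGAAG on either strand, a core bound by factors of the ETS family, to which the endothelial regulators Erg, Fli1 and Ets1 belong.
Tek: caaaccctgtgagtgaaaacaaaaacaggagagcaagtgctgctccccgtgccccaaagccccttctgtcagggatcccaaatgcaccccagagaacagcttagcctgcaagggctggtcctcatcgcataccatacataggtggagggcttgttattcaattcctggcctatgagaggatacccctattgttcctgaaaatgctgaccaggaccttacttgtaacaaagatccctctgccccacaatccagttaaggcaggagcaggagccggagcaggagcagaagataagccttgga
Tie1: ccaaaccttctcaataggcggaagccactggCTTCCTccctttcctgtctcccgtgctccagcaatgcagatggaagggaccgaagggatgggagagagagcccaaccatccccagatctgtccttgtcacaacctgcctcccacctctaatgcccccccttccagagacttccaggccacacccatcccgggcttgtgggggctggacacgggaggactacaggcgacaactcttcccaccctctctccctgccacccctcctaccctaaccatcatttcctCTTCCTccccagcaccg
Kdr: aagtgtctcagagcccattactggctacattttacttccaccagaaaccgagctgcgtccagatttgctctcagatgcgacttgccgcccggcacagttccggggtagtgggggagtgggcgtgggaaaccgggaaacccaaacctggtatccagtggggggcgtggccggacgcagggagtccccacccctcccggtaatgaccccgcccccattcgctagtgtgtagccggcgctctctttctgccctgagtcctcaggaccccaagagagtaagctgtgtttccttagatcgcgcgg
Emcn: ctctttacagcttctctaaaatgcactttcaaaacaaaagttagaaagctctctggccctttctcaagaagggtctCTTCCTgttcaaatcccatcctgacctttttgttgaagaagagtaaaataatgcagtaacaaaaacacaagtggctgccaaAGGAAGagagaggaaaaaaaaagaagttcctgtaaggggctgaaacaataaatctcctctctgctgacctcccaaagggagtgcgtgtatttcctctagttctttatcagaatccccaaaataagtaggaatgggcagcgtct
The core occurred 2 times in the Tie1 window, 2 times in that of Emcn and not in those of Tek and Kdr. Over the promoters that could be matched, 40.0% of 792 windows of genes called higher with a log2 fold change over 3 held it (95% interval 36.6 to 43.5%), against 32.7% of windows of all tested genes, 28.4% for genes called lower and 35.4% of all 32851 windows. The SOX and TCF/LEF type cores ACAAAG or AACAAT, on either strand, were in 19.7%, 19.0%, 21.2% and 27.0% of the same groups. These matches are a description of letters, and alternative starts of a gene share sequence, so that windows are not independent.

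Of the 35 pan-endothelial genes, 34 were called higher and 1 lower, with a median log2 fold change of 10.24. Pecam1, an adhesion molecule of endothelial junctions, had 333, 446, 552 and 636 CPM in endothelial cells, against 0.907, 1.52, 1.35 and 1.23 CPM in other cells (8.61 ± 0.51, SE, adjusted p = 1.31e-60). Tek, the angiopoietin receptor, had 90.8, 163, 199 and 283 CPM in endothelial cells, against 0.0151, 0.0478, 0.0900 and 0.0772 CPM in other cells (11.46 ± 0.57, SE, adjusted p = 9.18e-88). Its partner receptor gene Tie1 had 121, 215, 193 and 198 CPM in endothelial cells, against 0.0605, 0.0287, 0.0386 and 0.0309 CPM in other cells (12.48 ± 0.60, SE, adjusted p = 3.15e-91). Groups did not overlap for these 3 genes. Itm2a, a membrane protein gene of brain vessels, had 1937, 3048, 1443 and 3946 CPM in endothelial cells, against 6.23, 5.74, 6.49 and 7.19 CPM in other cells (8.64 ± 0.65, SE, adjusted p = 4.22e-38). The transcription factor genes of the list were all called higher, with log2 fold changes of 12.44 ± 0.60 for Sox17 and 6.77 ± 0.54 for Ets1 (SE). Ets1 had 878, 584, 753 and 240.4 CPM in endothelial cells, against 20.0, 5.70, 0.861 and 19.2 CPM in other cells. Bsg, which encodes the glycoprotein basigin, had 24877, 16680.5, 10412 and 31692 CPM in endothelial cells, against 393, 350.1, 291 and 413 CPM in other cells (5.65 ± 0.82, SE, adjusted p = 1.39e-10). It is also widespread, with UMIs in 92.1% of other cells. Without P12 replicate 1 the adjusted p of Bsg was 0.266, at a log2 fold change of 5.60.

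Tmem100 was the exception. This transmembrane gene is known as a target of BMP signalling in vessels during development, and it had no UMI in any of the 56 endothelial cells, which allows a UMI in up to 5.36% of cells and does not limit how many express the gene. Other cells held 32.5, 53.9, 81.6 and 40.3 CPM, with a UMI in 32.4% of them. Over the 3 tested libraries the level was at least 16.6-fold lower in endothelial cells (floor of 3 UMIs over the group, adjusted p = 1.89e-09).

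All 22 tested transporter genes of the blood-brain barrier were called higher (median log2 fold change 5.88). Slc2a1, the glucose carrier of the barrier, had 636, 1176, 664 and 6279 CPM in endothelial cells, against 7.71, 29.5, 32.1 and 22.3 CPM in other cells. It differed from other cells by a log2 fold change of 5.87 ± 0.59 (SE, adjusted p = 1.35e-21). The P22 library lay above the others, and its lowest, median and highest cells were at 2053, 5259.9 and 23846 CPM. Abcb1a, the main efflux pump, had 182, 661, 552 and 1103 CPM in endothelial cells, against 0, 0.0287, 0.0643 and 0.201 CPM in other cells (13.09 ± 0.64, SE, adjusted p = 1.84e-88). Mfsd2a, a lipid carrier that restrains vesicle traffic across the barrier, had 1211, 781, 580.1 and 905 CPM in endothelial cells, against 15.5, 5.63, 4.73 and 46.6 CPM in other cells (6.18 ± 0.50, SE, adjusted p = 1.22e-32). For these genes endothelial cells were above other cells in all 4 libraries. Slc16a1, which carries lactate and ketone bodies, had 1574, 2318, 1827 and 863 CPM in endothelial cells, against 7.47, 15.5, 18.3 and 9.66 CPM in other cells (6.78 ± 0.56, SE). Tfrc, the transferrin receptor for iron uptake, had 908, 1382, 1762 and 849 CPM in endothelial cells, against 20.3, 42.5, 39.5 and 19.9 CPM in other cells (5.30 ± 0.50, SE).

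Some transporters of the list were shared with other cells. Slco1c1, a thyroid hormone carrier, had 2361, 3168, 2294 and 2574 CPM in endothelial cells, against 72.4, 201, 313 and 41.9 CPM in other cells, with UMIs in 55.9% of other cells (4.22 ± 0.55, SE, adjusted p = 6.25e-13). Lrp8, a lipoprotein receptor, had 757, 369, 458 and 212 CPM in endothelial cells, against 68.7, 71.1, 54.1 and 58.7 CPM in other cells (2.49 ± 0.40, SE, adjusted p = 1.60e-08). Slc7a5, of the large neutral amino acid carrier, reached 5.65 ± 0.48 (log2 fold change, SE). Slc38a5, a glutamine carrier, was in contrast nearly absent from other cells, with UMIs in 0.148% of them (11.79 ± 0.57, SE). Plvap, which encodes the diaphragm protein of leaky fenestrated vessels, had no UMI in any endothelial cell and was too rare to be tested.

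Of 12 tight junction genes beside Cldn5, 8 were called higher and 1 lower (median 4.06). Ocln, which encodes occludin, had 60.5, 292, 137 and 311 CPM in endothelial cells, against 0.106, 0.115, 0.206 and 0.108 CPM in other cells (10.61 ± 0.54, SE, adjusted p = 2.12e-83). Lsr, the angulin of junctions where 3 cells meet, had 363, 369, 215 and 636 CPM in endothelial cells, against 0.302, 0.831, 1.11 and 0.571 CPM in other cells (8.78 ± 0.50, SE, adjusted p = 4.33e-67). Both were close to absent in other cells. Cgnl1, a junction adaptor, had 484, 172, 307 and 141 CPM in endothelial cells and 0.363, 0.334, 0.411 and 0.494 CPM in other cells (8.98 ± 0.52, SE). Tjp1, the scaffold ZO-1, was expressed on both sides, at 363, 687, 590.2 and 297 CPM in endothelial cells, against 32.4, 87.2, 144 and 47.0 CPM in other cells (2.54 ± 0.41, SE, adjusted p = 1.34e-08). Jam3 went the other way, with 0, 8.58, 18.1 and 0 CPM in endothelial cells, against 27.8, 52.0, 40.9 and 57.2 CPM in other cells (-1.75 ± 0.58, SE, adjusted p = 0.0136, with -3.59 without P12 replicate 2). Its call was lost without P12 replicate 1 (adjusted p = 0.215, log2 fold change -1.72) and without P22 (0.0577 and -1.38).

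The genes that carry and report Wnt signalling at the barrier gave 13 higher and 2 lower of 21 tested (median 2.99). Foxq1, a forkhead factor of brain endothelium, had 636, 816, 367 and 269 CPM in endothelial cells, against 0.151, 0.105, 0.0514 and 0.0617 CPM in other cells (12.62 ± 0.61, SE, adjusted p = 3.15e-91). Foxf2, another forkhead factor needed for the barrier, had 151, 120.2, 114 and 169.7 CPM in endothelial cells, against 0.151, 0.0956, 0.0771 and 0.0926 CPM in other cells (10.49 ± 0.57, SE, adjusted p = 5.38e-72). Lef1, the nuclear partner of β-catenin and a Wnt target, had 121, 343, 277 and 169.7 CPM in endothelial cells, against 2.04, 1.00, 0.887 and 1.90 CPM in other cells (7.83 ± 0.49, SE, adjusted p = 1.24e-55). Each of these genes was higher in endothelial cells of all 3 tested libraries, and at P2 too. Apcdd1, a Wnt inhibitor induced by the pathway, reached a log2 fold change of 5.89 ± 0.49 and Tcf7 of 5.52 ± 0.50 (SE). Fzd4, the receptor, had 0, 68.7, 76.3 and 141 CPM in endothelial cells, against 1.21, 4.58, 8.45 and 1.79 CPM in other cells (4.27 ± 0.50, SE, adjusted p = 9.38e-16). Adgra2, the co-receptor for WNT7 ligands, had 30.3, 85.8, 82.3 and 99.0 CPM in endothelial cells, against 0.121, 0.182, 0.476 and 0.309 CPM in other cells (8.10 ± 0.60, SE, adjusted p = 3.21e-39).

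The other readouts of the pathway were less particular. Axin2, the general Wnt target, had 30.3, 137, 143 and 28.3 CPM in endothelial cells, against 17.8, 50.1, 94.9 and 26.7 CPM in other cells, a log2 fold change of 0.87 that did not pass the test (adjusted p = 0.133). The ligands lay on the other side. Wnt7b had no endothelial UMI, against 8.85, 9.44, 12.7 and 5.72 CPM in other cells, at least 2.61-fold lower (adjusted p = 0.0232), and this call was lost without P12 replicate 1 (0.186) and without P12 replicate 2 (0.596). Ndp, which encodes the Fzd4 ligand norrin, had 4 UMIs in endothelial cells, all in cells with fewer than 8 panel genes, against 14.8, 23.8, 29.0 and 8.12 CPM in other cells. Its adjusted p was 0.0472, and 0.405 without P12 replicate 1 and 0.284 without P12 replicate 2. Wnt7a had 3 endothelial UMIs, all in such cells too, against 18.7, 10.2, 19.1 and 9.44 CPM in other cells, and did not pass the test (adjusted p = 0.163).

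Vessels change from artery over capillary to vein, and marker lists of each segment were examined. Of 7 capillary genes 6 were called higher, of 11 venous genes 9 higher and 1 lower, and of 10 tested arterial genes 6 higher (medians 6.18, 4.56 and 4.12). Car4, a carbonic anhydrase of capillaries, had 454, 438, 562 and 3394 CPM in endothelial cells, against 0.318, 0.382, 0.257 and 1.62 CPM in other cells, with UMIs in 41 of 56 cells (10.74 ± 0.64, SE, adjusted p = 1.87e-61). Spock2, a matrix proteoglycan gene, was detected in all 56 endothelial cells and had 1119.8, 3022, 2531 and 2220.3 CPM in endothelial cells, against 30.5, 51.2, 69.5 and 20.2 CPM in other cells (5.93 ± 0.57, SE, adjusted p = 3.26e-23). Vwf, the clotting factor that is strongest in larger vessels and veins, was detected in 46 of 56 cells at 696, 309, 484 and 453 CPM, against 0.620, 0.478, 0.669 and 1.40 CPM in other cells (9.05 ± 0.51, SE). Car4, Spock2 and Vwf were thus found in most endothelial cells. The venous regulator Nr2f2 was rare, with 0, 2, 41 and 1 UMIs in 12 of 56 cells, and its level was called higher than in other cells (4.83 ± 0.75, SE, adjusted p = 2.67e-09) but not without P12 replicate 2 (log2 fold change 2.50, adjusted p = 0.517). Vcam1, an adhesion molecule of activated and venous endothelium, was called lower, with 0, 8.58, 28.1 and 0 CPM in endothelial cells, against 76.9, 71.7, 119.8 and 39.1 CPM in other cells (-2.33 ± 0.56, SE, adjusted p = 0.000307). Of its 15 endothelial UMIs, 13 sat in cells with fewer than 8 panel genes, and its log2 fold change was -3.72 without P12 replicate 2.

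Gja4, an arterial connexin, was detected in 12 cells (60.5, 17.2, 32.1 and 70.7 CPM in endothelial cells, 0.560, 0.506, 0.0257 and 0.772 CPM in other cells, log2 fold change 7.12 ± 0.89, SE). Sema3g, an arterial semaphorin, was detected in 10 cells, with 0, 1, 13 and 17 UMIs (9.31 ± 1.00, SE, adjusted p = 4.60e-19). Gkn3, a marker of mature arterial endothelium, was found in 2 cells only, both at P22, and both also held Gja4, Gja5, Sema3g and Igfbp3. Apln, the ligand of the apelin receptor and a gene of tip cells and sprouting vessels, was detected in 22 of 56 cells at 1453, 51.5, 313 and 226 CPM in endothelial cells, against 1.26, 5.36, 7.25 and 2.65 CPM in other cells (5.19 ± 0.47, SE, adjusted p = 5.93e-27). The P2 value rests on 2 cells, and both held it. Its receptor gene Aplnr was detected in 27 cells at 121, 103, 122 and 42.4 CPM, against 0.0302, 0.0287, 0.0257 and 0.0617 CPM in other cells (11.21 ± 0.71, SE). Cxcl12 was found in 26 cells and Apln in 22, with both in 4 cells and neither in 12. These numbers describe 56 cells of 4 libraries, and shared library and depth also enter them. Of 11 tested genes of tip cells and angiogenesis, 10 were called higher (median log2 fold change 5.19). Esm1, a tip cell gene, had a single UMI.

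The basement membrane and matrix genes gave 16 of 17 called higher (median 5.65). Col4a1, a chain of the main collagen of vascular basement membrane, had 757, 1022, 1979 and 2036 CPM in endothelial cells, against 9.62, 17.5, 26.6 and 12.2 CPM in other cells (6.47 ± 0.55, SE, adjusted p = 3.84e-30). Its partner chain gene Col4a2 reached 7.34 ± 0.55 (SE). Fn1, fibronectin, had 484, 789.8, 1315 and 1838 CPM in endothelial cells, against 2.83, 4.50, 7.01 and 2.56 CPM in other cells (8.13 ± 0.57, SE, adjusted p = 3.63e-44), and Vwa1, of perlecan-binding matrix, had 1180.3, 1288, 897 and 1655 CPM in endothelial cells, against 1.19, 2.51, 2.48 and 3.30 CPM in other cells (8.81 ± 0.58, SE, adjusted p = 2.82e-50). Every library showed these genes far above other cells. The laminin chain gene Lama4 reached 7.98 ± 0.48, the nidogen gene Nid1 7.66 ± 0.54 and the perlecan gene Hspg2 6.32 ± 0.50 (log2 fold change, SE). Sparc, a secreted collagen-binding protein, was high on both sides, at 6386, 5752, 5279 and 6944 CPM in endothelial cells, against 294, 782, 682 and 233 CPM in other cells (3.55 ± 0.61, SE, adjusted p = 1.11e-07). Without P12 replicate 1 its adjusted p was 0.137, at a log2 fold change of 3.81. Timp3, a protease inhibitor, did not pass the test, and its difference changed sign between ages, with 0, 34.3, 68.3 and 962 CPM in endothelial cells, against 43.1, 158, 300.0 and 49.98 CPM in other cells (-0.13, adjusted p = 0.894).

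**Figure D2:**
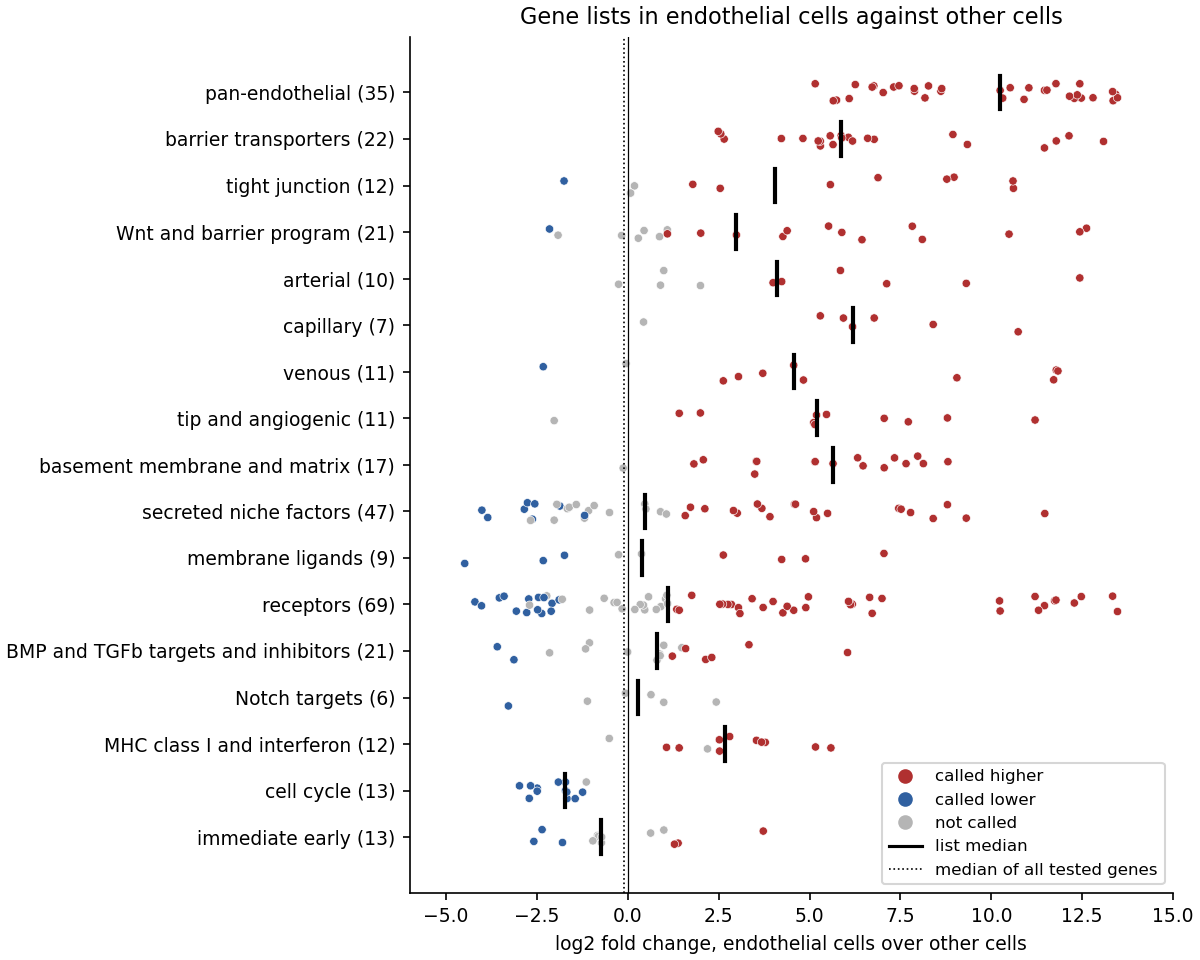
Log2 fold change of endothelial cells over other cells (x axis) for the tested genes of each list (y axis, number tested in parentheses), red where called higher, blue where called lower and grey where not called. Black bars are list medians and the dotted line is the median of all tested genes, -0.09, both with genes without endothelial UMIs at their bound, or at 0 where there is none, which are not drawn as points. Barrier transporter, pan-endothelial and matrix genes lie to the right, cell cycle genes to the left.

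Of the 61 secreted niche factors listed, 47 were tested, and 20 were called higher and 11 lower (median 0.47). Igfbp7, a secreted IGF-binding protein of vessels, had 2603, 1614, 1955 and 3988 CPM in endothelial cells, against 7.09, 12.8, 13.5 and 11.4 CPM in other cells, and was detected in 53 of 56 endothelial cells (7.52 ± 0.61, SE, adjusted p = 7.89e-33). Cxcl12, a chemokine that guides and retains progenitors, had 0, 2215, 885 and 2447 CPM in endothelial cells, against 4.67, 2.74, 2.16 and 21.9 CPM in other cells (8.40 ± 0.61, SE, adjusted p = 1.99e-40). It came from 0, 7, 13 and 6 cells, so that 26 of 56 cells carried it, and the lowest, median and highest cells were at 0, 0 and 11535 CPM in P12 replicate 2 and 0, 1611 and 13439.5 CPM at P22. Kitl, the ligand of the receptor Kit, had 151, 601, 355 and 608 CPM in endothelial cells, against 28.4, 50.2, 33.5 and 34.7 CPM in other cells, and was detected in 50 of 56 endothelial cells (3.69 ± 0.41, SE, adjusted p = 2.10e-17). Igfbp7 and Kitl were thus carried by nearly all endothelial cells of P12 and P22, Cxcl12 by a subset.

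Vasoactive and mitogenic ligands followed. Edn1, endothelin, which contracts mural cells and acts on glia, had 393, 283, 122 and 919 CPM in endothelial cells, against 0.121, 0.0191, 0.0386 and 0.602 CPM in other cells (11.47 ± 0.56, SE, adjusted p = 1.32e-88). Edn3, a related ligand, had 0, 51.5, 54.2 and 240.4 CPM in endothelial cells, against 0.378, 0.296, 0.489 and 0.802 CPM in other cells (7.45 ± 0.59, SE, adjusted p = 4.94e-35). Adm, adrenomedullin, a dilator peptide, had 121, 68.7, 108 and 56.6 CPM in endothelial cells, against 0.302, 0.287, 0.244 and 0.833 CPM in other cells (7.78 ± 0.63, SE, adjusted p = 6.61e-33). The endothelin genes were highest at P22 and were undetected or nearly so in other cells. Pdgfb, which recruits pericytes, was found in 47 of 56 cells at 212, 163, 239 and 382 CPM in endothelial cells, against 0.0756, 0.334, 0.386 and 1.27 CPM in other cells (8.79 ± 0.49, SE, adjusted p = 9.33e-68). It was also in 48.5% of 101 microglia, but in 0.347% of other cells as a whole. Angpt2, the angiopoietin of remodelling vessels, had 60.5, 17.2, 102 and 113 CPM in endothelial cells and 1.19, 3.48, 2.37 and 1.14 CPM in other cells (5.11 ± 0.58, SE, adjusted p = 3.68e-17). Tgfb1, the TGFβ ligand that endothelium and microglia make, had 30.3, 94.4, 124 and 169.7 CPM in endothelial cells, against 0.681, 1.60, 2.46 and 5.63 CPM in other cells (5.50 ± 0.47, SE, adjusted p = 4.34e-30), with UMIs in 31 of 56 endothelial cells and in 85.1% of microglia. Sema3c, a guidance ligand, had 0, 223, 114 and 410.1 CPM in endothelial cells, against 36.7, 10.2, 7.25 and 9.06 CPM in other cells (4.61 ± 0.41, SE, adjusted p = 5.49e-27). Nampt, an enzyme of NAD synthesis that is also secreted, had 514, 386, 448 and 169.7 CPM in endothelial cells, against 18.0, 25.7, 27.3 and 30.8 CPM in other cells (3.57 ± 0.42, SE, adjusted p = 8.58e-16).

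Other factors called higher rested on fewer UMIs. Ctgf, a matricellular factor, had 182, 17.2, 56.2 and 325 CPM in endothelial cells, against 8.61, 6.55, 5.32 and 1.05 CPM in other cells (4.59 ± 0.54, SE, adjusted p = 1.26e-15), and its log2 fold change was 2.98 without P22. Hbegf, an EGF receptor ligand, had 151, 60.1, 84.3 and 28.3 CPM in endothelial cells, against 11.2, 6.73, 8.47 and 8.38 CPM in other cells (3.01 ± 0.53, SE, adjusted p = 2.58e-07), and 0.161 without P12 replicate 2 (log2 fold change 2.39). Igfbp4 had 575, 77.3, 124 and 14.1 CPM in endothelial cells, against 43.6, 12.0, 12.0 and 6.28 CPM in other cells (2.91 ± 0.50, SE, adjusted p = 9.32e-08), and 0.227 without P12 replicate 2 (2.07). Igfbp3 came from 2 cells of P22, with 0, 0, 0 and 20 UMIs, and its log2 fold change of 3.91 turned to -8.18 without that library (adjusted p = 0.000931 with it and 0.734 without). Bmp4 had 0, 0, 16.1 and 28.3 CPM in endothelial cells, against 9.86, 3.93, 0.0386 and 58.6 CPM in other cells, so that endothelial cells were above other cells only in P12 replicate 2, and its call (log2 fold change 2.12, adjusted p = 0.0264) turned to -1.55 without that replicate (adjusted p = 0.581). For Igfbp3 and Bmp4 no direction was therefore read.

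Growth factors of the neural tissue were low in endothelial cells. Mdk, midkine, a heparin-binding growth factor of developing brain, had 151, 8.58, 36.1 and 42.4 CPM in endothelial cells, against 543, 450.2, 439 and 618 CPM in other cells (-4.01 ± 0.51, SE, adjusted p = 1.01e-13), with 16 of 27 endothelial UMIs in cells with fewer than 8 panel genes. Igfbp5 had 0, 94.4, 213 and 0 CPM in endothelial cells, against 216, 1412, 2185 and 477 CPM in other cells (-3.85 ± 0.53, SE, adjusted p = 1.29e-11), and 97 of its 117 endothelial UMIs sat in cells with fewer than 8 panel genes. Dkk3, a secreted Dickkopf family protein, had 0, 25.8, 28.1 and 14.1 CPM in endothelial cells, against 36.8, 149.6, 209.6 and 34.4 CPM in other cells (-2.56 ± 0.52, SE, adjusted p = 1.43e-05), with 11 of 18 UMIs in such cells. In all 3 tested libraries endothelial cells lay below other cells for these genes. Vegfa, the main ligand of Kdr and Flt1, had 0, 34.3, 2.01 and 0 CPM in endothelial cells, against 20.1, 44.4, 88.7 and 23.8 CPM in other cells (-2.85 ± 0.69, SE, adjusted p = 0.000336). Without P12 replicate 2 its log2 fold change was -1.12 (adjusted p = 0.620), and without P12 replicate 1 -5.45. Vegfb had 0, 17.2, 38.1 and 14.1 CPM in endothelial cells, against 116, 93.2, 102 and 120.3 CPM in other cells (-1.87 ± 0.48, SE, adjusted p = 0.00100, and 0.0772 without P12 replicate 1 at -1.88, with -2.94 without P12 replicate 2). The endothelial cells thus held the receptors of the VEGF system and little of these ligands. Angpt1, Fgf2 and Bmp7 had no endothelial UMI and were at least 3.49-, 3.47- and 2.24-fold lower than in other cells, calls that were lost without P12 replicate 1 (adjusted p = 0.128, 0.128 and 0.261) and without P12 replicate 2 (0.590, 0.659 and 0.605), that of Bmp7 also without P22 (0.0580). Ptn, pleiotrophin, a close relative of midkine, was abundant on both sides at P12 and P22, with 60.5, 1374, 1785 and 1329 CPM in endothelial cells, against 2175, 2532, 3806 and 913 CPM in other cells, and did not pass the test (-0.50, adjusted p = 0.527). Of its 1145 endothelial UMIs, 464 sat in cells with fewer than 8 panel genes.

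Some factors often named in vascular niches were not detected or were near the limit. Of the listed factors, 14 had no UMI in any endothelial cell, among them Bmp2, Igf2, Ntf3, Btc, Lif, Il6, Reln and Slit3, and each such 0 of 56 cells allows a UMI in up to 5.36% of cells. Bdnf had 1 UMI, in a cell with fewer than 8 panel genes. At this number of cells these transcripts were not detectable, which does not show that they are absent. In summed UMIs, 3 UMIs amount to 90.8, 25.8, 6.02 and 42.4 CPM in the 4 libraries, and to 4.18 CPM over all of them.

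Of 9 membrane-bound ligands, 4 were called higher and 3 lower (median 0.38). Jag2, a Notch ligand, had 60.5, 129, 134 and 184 CPM in endothelial cells, against 1.88, 0.879, 1.41 and 0.988 CPM in other cells (7.05 ± 0.48, SE, adjusted p = 1.25e-46). Dll4, the Notch ligand of arterial and tip cells, had 182, 85.8, 126 and 42.4 CPM in endothelial cells, against 3.54, 7.12, 4.02 and 3.93 CPM in other cells, and was detected in 30 of 56 endothelial cells (4.23 ± 0.51, SE, adjusted p = 4.29e-15). Efna1, an ephrin, had 60.5, 68.7, 72.3 and 113 CPM in endothelial cells, against 1.48, 4.35, 2.61 and 1.73 CPM in other cells (4.89 ± 0.53, SE, adjusted p = 1.66e-18). In contrast Dll1, the Notch ligand of neural progenitors, had 1 UMI in endothelial cells, against 25.7, 44.7, 33.3 and 21.9 CPM in other cells (adjusted p = 0.000140). Endothelial and other cells thus differed in opposite directions for Dll4 and Dll1. Jag1 was present on both sides, at 30.3, 34.3, 74.3 and 28.3 CPM in endothelial cells, against 12.7, 36.3, 63.6 and 9.98 CPM in other cells, and did not pass the test (adjusted p = 0.630). The same held for Efnb2, at 30.3, 51.5, 86.3 and 14.1 CPM in endothelial cells, against 69.8, 62.7, 76.2 and 62.4 CPM in other cells (adjusted p = 0.735).

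**Figure D3:**
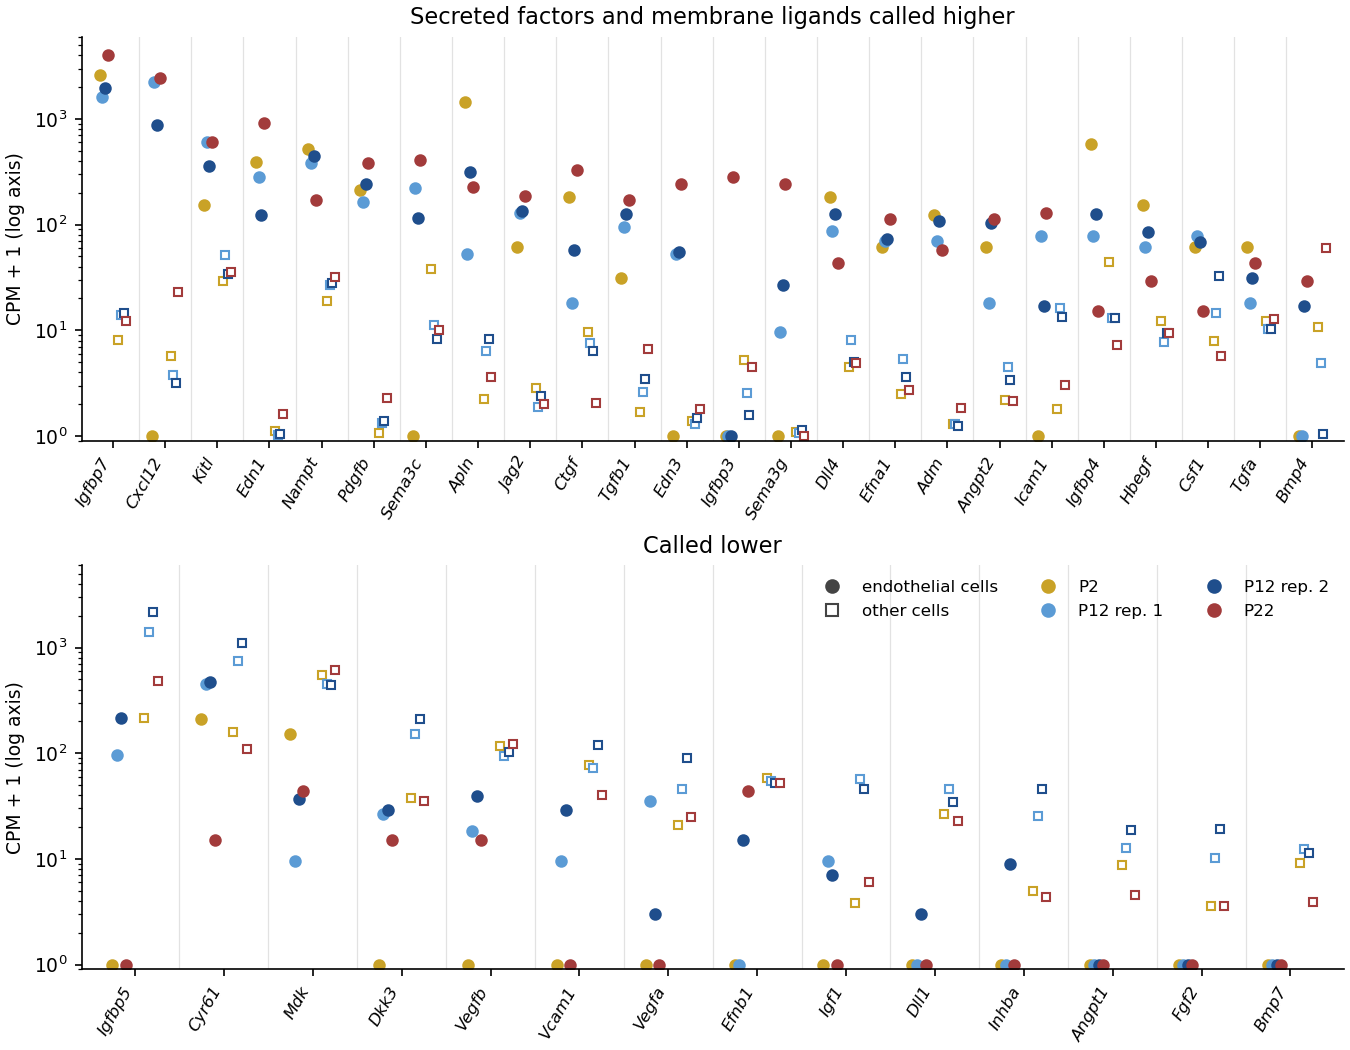
CPM plus 1 on a log axis for the secreted factors and membrane ligands called higher (top) and lower (bottom) in endothelial cells, for endothelial cells (filled circles, left of each gene) and other cells (open squares, right), coloured by library. Igfbp7 lies between 1614 and 3988 CPM in endothelial cells of the 4 libraries and between 7.09 and 13.5 CPM in other cells, and Mdk between 8.58 and 151 CPM in endothelial cells and between 439 and 618 CPM in other cells.

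Of 70 receptor genes listed, 69 were tested, and 34 were called higher and 15 lower (median 1.09). The higher ones included the receptors of the vascular ligands. Kdr, the main signalling receptor for VEGF, had 1150.0, 1185, 989.6 and 509 CPM in endothelial cells, against 0.0605, 0.0382, 0.193 and 0.386 CPM in other cells (12.29 ± 0.65, SE, adjusted p = 4.78e-77). Its co-receptor gene Nrp1 had 363, 386, 405 and 169.7 CPM in endothelial cells, against 9.06, 5.71, 4.58 and 2.90 CPM in other cells (6.18 ± 0.45, SE, adjusted p = 5.79e-40). Flt4, the VEGF-C receptor, had 60.5, 103, 60.2 and 84.9 CPM in endothelial cells, against 0.0151, 0.00956, 0.0257 and 0.0309 CPM in other cells (11.74 ± 0.79, SE, adjusted p = 8.19e-48). All 3 were higher in every library. The peptide receptor partner gene Ramp2 had 2512, 1906, 1355 and 5232 CPM in endothelial cells, against 15.2, 20.8, 24.8 and 21.3 CPM in other cells (6.72 ± 0.60, SE, adjusted p = 5.45e-27), and Calcrl, with which it forms the adrenomedullin receptor, had 30.3, 51.5, 56.2 and 84.9 CPM in endothelial cells, against 2.62, 2.12, 0.861 and 5.68 CPM in other cells (4.97 ± 0.60, SE, adjusted p = 7.60e-15). Together with Adm, both receptor parts and their ligand were thus measured in these cells. Thbd and Procr, the anticoagulant receptors of the vessel wall, reached log2 fold changes of 10.23 ± 0.85 and 6.65 ± 0.81, and Robo4, an endothelial guidance receptor, 11.78 ± 0.58 (SE). Igf1r, the IGF receptor, was found on both sides, at 303, 849.9, 817 and 636 CPM in endothelial cells, against 67.7, 144, 173 and 75.4 CPM in other cells, and was higher by 2.61 ± 0.42 (log2 scale, SE). Insr, the insulin receptor, was higher by 2.53 ± 0.40 (log2 scale, SE). Notch4, the endothelial Notch receptor, had 90.8, 77.3, 88.3 and 99.0 CPM in endothelial cells, against 9.63, 10.3, 8.43 and 6.14 CPM in other cells (3.42 ± 0.48, SE, adjusted p = 2.12e-11).

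The 15 receptors called lower included growth factor receptors of neural stem and glial cells. Ntrk2, the BDNF receptor, had 0, 51.5, 181 and 14.1 CPM in endothelial cells, against 281, 1468, 1942 and 395 CPM in other cells (-4.02 ± 0.54, SE, adjusted p = 2.79e-12). Of its 97 endothelial UMIs, 86 sat in cells with fewer than 8 panel genes. Egfr, which marks activated stem cells and progenitors, had 0, 34.3, 38.1 and 0 CPM in endothelial cells, against 45.7, 126, 198 and 66.2 CPM in other cells (-2.31 ± 0.50, SE, adjusted p = 4.25e-05), with 18 of 23 UMIs in such cells. Epha5, an ephrin receptor of neural cells, had 0, 8.58, 34.1 and 0 CPM in endothelial cells, against 125, 165, 228 and 53.3 CPM in other cells (-3.07 ± 0.53, SE, adjusted p = 1.43e-07), with 17 of 18 UMIs in such cells (log2 fold change -4.74 without P12 replicate 2). Most UMIs of these receptors thus sat in 5 of the 56 cells. Notch2 had 0, 17.2, 42.2 and 0 CPM in endothelial cells, against 45.9, 131, 210.3 and 27.7 CPM in other cells (-2.46 ± 0.52, SE, adjusted p = 3.45e-05), with 13 of 23 UMIs in such cells. Pdgfra, the receptor of oligodendrocyte precursors, had no endothelial UMI and was at least 2.66-fold lower (adjusted p = 0.00411), a call lost without P12 replicate 1 (0.115) and without P22 (0.0841). Ednrb, the endothelin receptor of astrocytes and progenitors, had 30.3, 42.9, 205 and 0 CPM in endothelial cells, against 178, 329, 455 and 149.8 CPM in other cells (-2.08 ± 0.46, SE, adjusted p = 7.37e-05), and 0.0854 without P12 replicate 1 (-1.98). For the endothelin pair, the ligands Edn1 and Edn3 were thus higher in endothelial cells and this receptor was lower. Of the 108 endothelial Ednrb UMIs, 95 sat in cells with fewer than 8 panel genes, and its log2 fold change was -3.62 without P12 replicate 2.

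The receptors of the BMP and TGFβ family are pairs of type I and type II chains, with co-receptors. Acvrl1, the type I receptor of this family that is particular to endothelium, had 121, 403, 157 and 495 CPM in endothelial cells, against 0, 0.0478, 0.0257 and 0.571 CPM in other cells (11.30 ± 0.55, SE, adjusted p = 1.33e-89). Eng, endoglin, its co-receptor, had 726, 618, 610.3 and 1131 CPM in endothelial cells, against 0.272, 0.325, 0.424 and 1.60 CPM in other cells (10.24 ± 0.57, SE, adjusted p = 2.56e-68). Bmpr2, the type II BMP receptor, had 272, 223, 367 and 396 CPM in endothelial cells, against 61.4, 96.4, 139 and 58.8 CPM in other cells (1.76 ± 0.39, SE, adjusted p = 7.53e-05). These 3 genes were higher in endothelial cells of every library. Tgfbr2, the type II TGFβ receptor, had 242, 215, 233 and 141 CPM in endothelial cells, against 0.998, 2.08, 3.47 and 3.13 CPM in other cells (6.13 ± 0.46, SE, adjusted p = 1.78e-38), and Tgfbr3, a co-receptor, 0, 34.3, 38.1 and 141 CPM in endothelial cells, against 0.272, 0.354, 0.707 and 0.293 CPM in other cells (6.99 ± 0.79, SE, adjusted p = 2.49e-17). The type I BMP receptors of neural cells lay lower, but were not called by edgeR without the library block (adjusted p = 0.0957 for Bmpr1a and 0.0835 for Bmpr1b). Bmpr1a had 0, 8.58, 46.2 and 0 CPM in endothelial cells, against 38.9, 112, 182 and 44.1 CPM in other cells (-2.37 ± 0.52, SE, adjusted p = 6.10e-05), and 20 of its 24 endothelial UMIs sat in cells with fewer than 8 panel genes (log2 fold change -4.24 without P12 replicate 2). Bmpr1b had 0, 8.58, 6.02 and 0 CPM in endothelial cells, against 10.6, 49.8, 93.8 and 9.23 CPM in other cells (-3.53 ± 0.74, SE, adjusted p = 2.58e-05), and 0.251 without P12 replicate 2 (-2.90). Tgfbr1, Acvr2a and Acvr2b did not pass the test (log2 fold changes -0.38, -0.16 and -1.05, adjusted p = 0.650, 0.897 and 0.220).

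Of 21 tested targets and inhibitors of the BMP and TGFβ pathways, 6 were called higher and 3 lower (median 0.80). Id1, a direct BMP target, had 30.3, 592, 474 and 1810.2 CPM in endothelial cells, against 53.4, 244, 286 and 65.8 CPM in other cells (2.14 ± 0.47, SE, adjusted p = 5.39e-05). Without P12 replicate 1 its adjusted p was 0.0619, at a log2 fold change of 2.63, and without P22 the fold change was 1.01 (adjusted p = 0.0392). Ltbp4, which binds latent TGFβ, had 30.3, 283, 189 and 749.5 CPM in endothelial cells, against 4.34, 6.92, 4.37 and 4.37 CPM in other cells (6.05 ± 0.44, SE, adjusted p = 3.81e-40), and Bambi, a pseudoreceptor, 121, 155, 110.4 and 56.6 CPM in endothelial cells, against 31.2, 26.0, 25.3 and 13.2 CPM in other cells (2.31 ± 0.43, SE, adjusted p = 1.44e-06). Id4, the Id gene of neural stem cells, was lower, at 30.3, 42.9, 84.3 and 0 CPM in endothelial cells, against 238, 682, 671 and 314 CPM in other cells (-3.59 ± 0.50, SE, adjusted p = 1.40e-11), with 37 of 48 endothelial UMIs in cells with fewer than 8 panel genes. Id1 and Id4, both targets of the same pathway, thus went opposite ways. Id3 did not pass the test, with 121, 773, 883 and 1372 CPM in endothelial cells, against 70.9, 753, 973 and 175 CPM in other cells (adjusted p = 0.184). Id2 had 0, 215, 163 and 84.9 CPM in endothelial cells, against 123, 356, 515 and 126 CPM in other cells (adjusted p = 0.0541), with 74 of 112 UMIs in cells with fewer than 8 panel genes. The secreted BMP inhibitors Chrd and Chrdl1 had no endothelial UMI and Nog had 1. Of the 6 Notch target genes none was called higher and 1 lower: Hes5 had 30.3, 42.9, 128 and 14.1 CPM in endothelial cells, against 291, 756, 978 and 126 CPM in other cells (-3.29 ± 0.51, SE, adjusted p = 2.36e-09), with 60 of 71 endothelial UMIs in cells with fewer than 8 panel genes. Hes1 had 393, 601, 327 and 141 CPM in endothelial cells, against 117, 355, 332 and 53.8 CPM in other cells (adjusted p = 0.289).

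**Figure D4:**
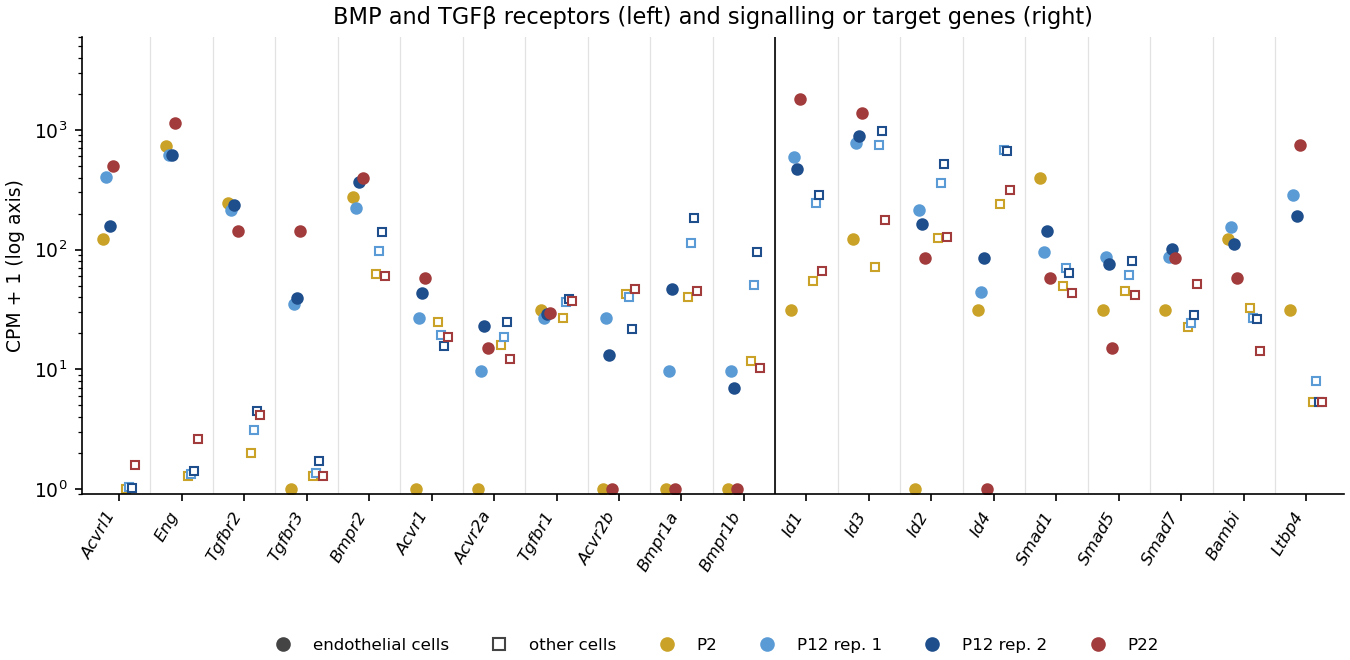
CPM plus 1 on a log axis for BMP and TGFβ receptor genes (left of the line) and signalling or target genes (right), in endothelial cells (filled circles, left of each gene) and other cells (open squares, right), coloured by library. Acvrl1 and Eng lie at 121 CPM or more in endothelial cells and at 1.60 CPM or less in other cells, whereas Bmpr1a, Bmpr1b and Id4 lie below other cells in all 4 libraries.

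The MHC class I and interferon genes gave 10 of 12 called higher and none lower (median 2.66). H2-D1, a class I heavy chain, had 303, 403, 486 and 1216 CPM in endothelial cells, against 29.4, 40.4, 43.8 and 50.6 CPM in other cells (3.78 ± 0.43, SE, adjusted p = 8.29e-17), and B2m, its light chain, 182, 343, 281 and 396 CPM in endothelial cells, against 8.48, 29.5, 30.8 and 25.6 CPM in other cells (3.54 ± 0.40, SE, adjusted p = 2.08e-17). Bst2, an interferon-induced membrane protein, had 30.3, 120.2, 48.2 and 396 CPM in endothelial cells, against 1.51, 4.19, 1.18 and 4.29 CPM in other cells (5.59 ± 0.45, SE, adjusted p = 5.99e-33). Ifitm3, of antiviral membrane proteins, had 60.5, 197, 203 and 877 CPM in endothelial cells, against 62.3, 98.3, 70.7 and 21.8 CPM in other cells (2.53 ± 0.43, SE, adjusted p = 7.81e-08), and its log2 fold change was 1.34 without P22. All were above other cells in each tested library. Microglia also held these genes, with UMIs of H2-D1 in 91.1% and of B2m in 97.0% of them, whereas the microglial markers C1qa and P2ry12 were at 0 in endothelial cells.

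The cell cycle genes gave 12 of 13 called lower (median -1.71). At least 1 of these genes was detected in 8 of 12 endothelial cells of P12 replicate 1, 24 of 31 of P12 replicate 2 and 7 of 11 at P22, against 75.7%, 68.6% and 84.4% of other cells. With every cell thinned to 2000 UMIs, the shares were 16.7% (2.09 to 48.4%), 38.7% (21.9 to 57.8%) and 36.4% (10.9 to 69.2%) in endothelial cells, against 43.4%, 29.5% and 53.4% in other cells. These intervals are wide and contain the shares of other cells in all 3 libraries. At P2 the thinned shares were 0 of 2 endothelial cells and 44.4% of other cells. Top2a, a topoisomerase of dividing cells, had 0, 34.3, 321 and 28.3 CPM in endothelial cells, against 355, 781, 579 and 624 CPM in other cells, and Mki67 0, 0, 399 and 42.4 CPM in endothelial cells, against 132, 404, 345 and 213 CPM in other cells. Their log2 fold changes were -2.71 ± 0.50 and -1.71 ± 0.49 (SE, adjusted p = 1.01e-06 and 0.00361), and without P12 replicate 1 -2.20 and -0.80 (adjusted p = 0.1000 and 0.617). Without P12 replicate 2 they were -4.72 and -4.43. In P12 replicate 2, where endothelial cells were above other cells for Mki67, nearly all of these UMIs belonged to 2 endothelial cells, which held 79 and 118 of 199 Mki67 UMIs and 55 and 104 of 160 Top2a UMIs. Both held all 13 cell cycle genes and all 12 panel genes, with 31503 and 47959 UMIs and 14 and 5 UMIs of stem cell and astrocyte genes. The cell with 47959 UMIs was among the 5% of its library with the highest doublet scores, which were not reliable in that library. The 2 cells were the only endothelial cells with more than 2 UMIs of either gene.

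Immediate early and shear-responsive genes split, with 3 of 13 called higher and 3 lower (median -0.72). Klf2, the factor that laminar blood flow induces in endothelium, had 1119.8, 1528, 676 and 1315 CPM in endothelial cells, against 15.2, 141, 108 and 35.4 CPM in other cells (3.73 ± 0.47, SE, adjusted p = 7.10e-14), and was detected in 53 of 56 endothelial cells. Fos had 757, 1236, 1144 and 56.6 CPM in endothelial cells, against 1398, 4952, 5042 and 1242 CPM in other cells (-2.58 ± 0.57, SE, adjusted p = 6.62e-05) and Egr1 60.5, 867, 727 and 28.3 CPM in endothelial cells, against 522, 2419.8, 2970.4 and 958 CPM in other cells (-2.36 ± 0.53, SE, adjusted p = 8.20e-05). Without P12 replicate 1 neither Fos nor Egr1 was called (log2 fold changes -3.15 and -3.17, adjusted p = 0.151 and 0.0687). Both were lower at P22 than at P12 in endothelial and in other cells, and 348 of 743 endothelial Fos UMIs sat in cells with fewer than 8 panel genes.

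By the same rule for other cells, the 15 genes with the largest decrease all had 0 endothelial UMIs in the 3 tested libraries. Bcl11a, a transcription factor of neuronal lineages, stood at 194, 107, 57.3 and 189.9 CPM in other cells and was at least 18.1-fold lower in endothelial cells (adjusted p = 1.22e-12). After Tmem100 followed Csdc2 (at least 16.1-fold), Veph1 (13.7-fold), Dlx6os1 (13.6-fold), Rims2 (12.8-fold), Ctnnal1 (10.1-fold) and C1ql1 (10.0-fold). Intu, Dbpht2, Slc13a3, Actr3b, Eomes, Gpc1 and Syce2 made up the rest, at bounds of 7.15-fold or more. Without P12 replicate 2, which gave 31 of the 54 cells, Veph1, Intu, Slc13a3, Eomes and Actr3b were no longer called (adjusted p = 0.120, 0.176, 0.341, 0.129 and 0.220). Dlx6os1 was not called by DESeq2 (adjusted p = 0.0698) or by edgeR without the library block (0.0944). Eomes marks glutamatergic progenitors, Dlx6os1 a GABAergic locus and Rims2 presynaptic zones.

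Levels in endothelial cells were then set side by side by age. Of 322 listed genes, 33 were higher and 11 lower at P22 than at P2 in the sense that the counting intervals of P2 and P22 did not overlap and both P12 levels lay within the span of those intervals. This count was not made over all genes, so that no result about the lists was read from it. No test was made, since 2 cells stand for P2 and 1 library for P22, and the intervals do not cover the spread between cells. Moreover, the file headers name a different version of Cell Ranger for P12 than for P2 and P22, so that an age difference between P12 and the other ages and the version cannot be told apart. Ly6c1 had 272 CPM (125 to 517) at P2, 3443 CPM (3114 to 3797) and 1237 CPM (1141 to 1338) in the P12 replicates and 8627 CPM (7955 to 9339) at P22, with exact Poisson 95% intervals. Ly6a, a further surface antigen gene of brain endothelium, had 0, 953, 311 and 3168 CPM, with no UMI in the 2 cells at P2. Both were near 0 in other cells at each age, and with Abcb1a, Id1 and Id3 they made up the 5 genes for which the P12 intervals also lay apart from both ends.

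Barrier genes did not move as a block. Slc2a1 had 636 CPM (393 to 971) at P2 and 6279 CPM (5708 to 6891) at P22, with the P12 replicates at 1176 and 664 CPM, and Car4 had 454 CPM (254 to 749) and 3394 CPM (2978 to 3852), with the P12 replicates at 438 and 562 CPM. The efflux genes Abcb1a and Abcg2 and the carrier gene Slco1a4 were also higher at P22. In contrast Slc3a2, the heavy chain of amino acid carriers, was higher at P2, with 1725, 1047, 713 and 905 CPM over the 4 libraries. Slc38a5 had 787, 498, 381 and 311 CPM. Lrp8 had 757, 369, 458 and 212 CPM. Abcb1a, Abcg2 and Slc2a1 were thus higher at P22 than at P2, and Slc3a2, Slc38a5 and the lipoprotein receptor gene Lrp8 lower. Abcc4, another efflux gene of the list, did not meet the rule. It had UMIs in 2 of 2 cells at P2 and in 5 of 11 cells at P22, with median cells at 91.0 and 0 CPM. Slc16a1 and Tfrc lay lower at P22 than in both P12 replicates.

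Signalling genes also differed. Id1 had 30.3 CPM (0.766 to 169) at P2, from 1 UMI, and 1810.2 CPM (1510.2 to 2152) at P22. Other cells had 53.4, 244, 286 and 65.8 CPM of Id1, so that the order in other cells was not the same. Acvrl1 had 121 CPM (33.0 to 309.9) and 495 CPM (345 to 688). H2-D1 had 303 CPM (145 to 557) and 1216 CPM (973 to 1502). Bst2 and Ifitm3 met the same rule, with 1 and 2 UMIs at P2. At P2 Id1, Bst2 and Ifitm3 lay under the floor of 3 UMIs, so that no difference by age was read for them. Among secreted factors Kitl was higher at P22 and Igfbp4 and Nampt at P2. Cxcl12, Sema3c, Edn3, Sema3g, Timp3, Igfbp3 and H2-K1 had no UMI in the 2 cells at P2, and neither had Ly6a. They are among the 33 genes counted as higher at P22, but no difference by age was read for them. Kdr had 1150.0 CPM (814 to 1578) at P2 and 509 CPM (357 to 705) at P22, and Ets1 878 CPM (588 to 1260.4) and 240.4 CPM (140.0 to 385). The range over single cells was wide in every library. For Kdr the lowest, median and highest cells were at 533, 1154 and 1978 CPM in P12 replicate 1, 0, 1022 and 2289.6 CPM in P12 replicate 2 and 0, 373 and 1485 CPM at P22, so that single cells of both ages overlapped.

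**Figure D5:**
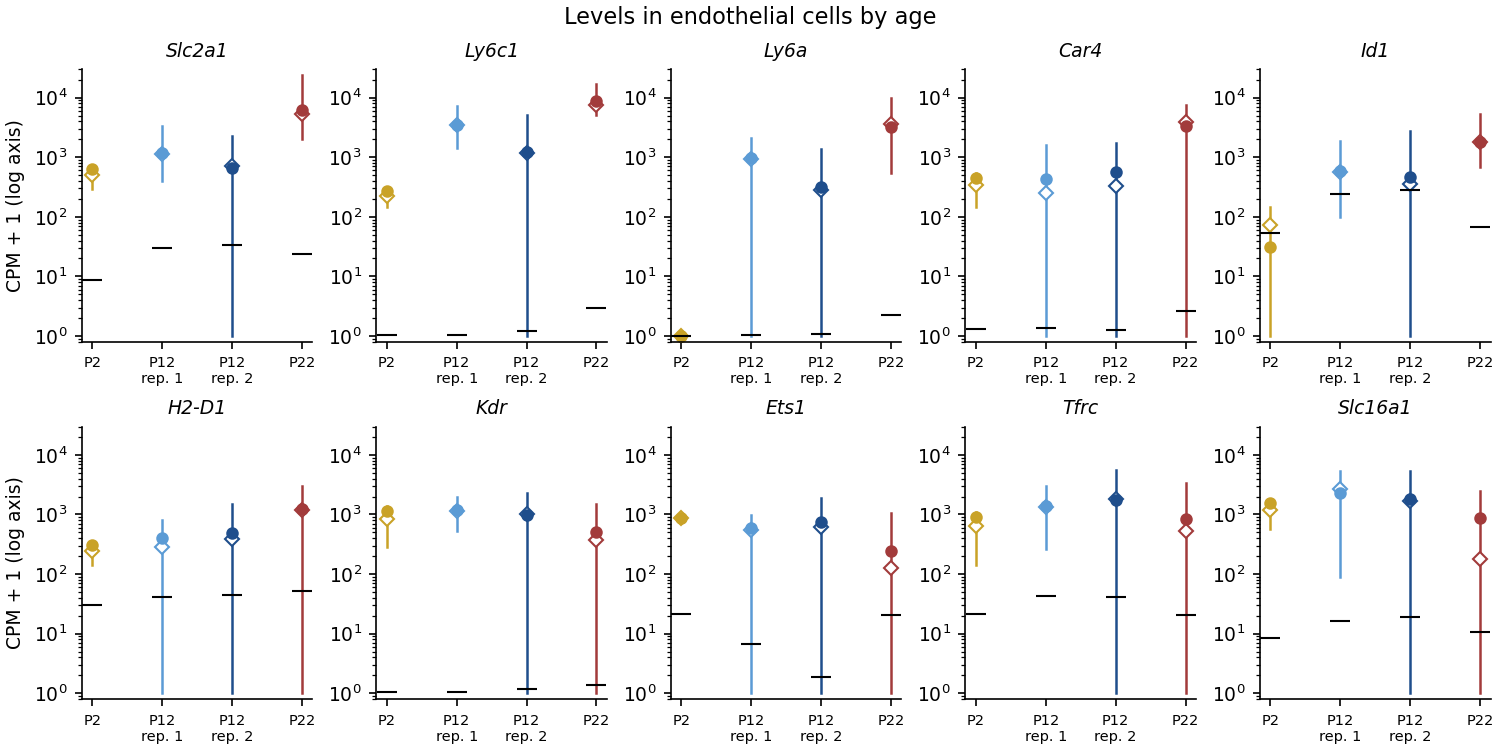
CPM plus 1 on a log axis of 10 genes in endothelial cells by library. Filled circles are the summed level, open diamonds the median cell and lines the range from the lowest to the highest cell (2, 12, 31 and 11 cells), and black dashes are the summed level of other cells. Ly6c1 lies at 272 CPM at P2 and 8627 CPM at P22, Kdr at 1150.0 CPM at P2 and 509 CPM at P22, and the lines of single cells overlap for Kdr.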

How the data were processed

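The authors deposited UMI counts per gene and barcode for 31053 genes in 4 libraries, made with Cell Ranger on mm10 (version 5.0.1 for P2 and P22 and 3.1.0 for P12, per the file headers). Barcodes with 1000 to 8000 detected genes and under 10% mitochondrial UMIs were kept, and endothelial cells were chosen with Python 3.11.15. Members and gene lists were chosen with earlier results of these data known. Counts were summed per library and class and tested with edgeR 4.0.16 in R 4.3.3 (filterByExpr, TMM normalization, library as a block), after a check on simulated data. The simulated sums were drawn with less variation than these data, for which a common dispersion of 0.0997 was estimated. The check therefore does not show how the test performs here. The P2 library, with fewer than 5 endothelial cells, was left out of the test. CPM levels leave out 5 erythroid genes, a choice made after seeing the data, and are not TMM-adjusted as the fold changes are. Named genes were the 15 largest called changes in each direction with the same sign and at least 20 UMIs in the higher class in every tested library, together with genes of the lists, of which those described were chosen with their values known. Scrublet (scanpy 1.11.5) called no endothelial cell a doublet but called 0.0196% of cells in P12 replicate 2, where it did not work, so that doublets were kept and the 5% highest scores were left out as an alternative. DESeq2 1.42.0 was another alternative. The p-values set the difference between endothelial and other cells against its variation over the 3 tested libraries, with 2 residual degrees of freedom. The variance of each gene was estimated with information shared across genes. A small p-value therefore does not by itself show the same direction in each library, as for Bmp4.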

Additional observations from a re-analysis of the deposited data

Results flagged for a closer look

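Among P22 barcodes with under 1000 detected genes, which were not analysed, 5 of 421 held at least 5 of the 12 panel genes, against 0, 0 and 1 at P2 and in P12 replicates 1 and 2.

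For 3 genes the difference between endothelial and other cells had opposite signs at P12 and P22, and this change of sign was not tested. Timp3, a protease inhibitor of the matrix, differed by -123 and -232 CPM in P12 replicates 1 and 2 and by 912 CPM at P22. Ptn, pleiotrophin, differed by -1159 and -2021 CPM in P12 replicates 1 and 2 and by 417 CPM at P22. Nrep, a regulator of TGFβ signalling, differed by 122 and 218 CPM in P12 replicates 1 and 2 and by -120.2 CPM at P22. P22 is a single library with 11 endothelial cells.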

How the results depend on the processing

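Endothelial and other cells were paired within each library, which served as the block. Libraries could not be paired between ages because only P12 has replicate numbers. Without the library block 2170 genes were called in place of 3307, of which 914 were lower. Of the named genes, 21 lost their call in that setting. Among them were Bmpr1a, Bmpr1b, Notch2, Ednrb, Vcam1, Vegfa, Mki67, Top2a, Fos and Egr1. Leaving out each library in turn gave 1535 to 3034 called genes, 812 to 1501 of them higher and 565 to 1533 lower. The fewest were called without P12 replicate 1 (970 higher and 565 lower), and 1792 without P12 replicate 2 (812 higher and 980 lower). The causes were not tested. Other settings gave 2530 (DESeq2) to 3838 (without the 5% highest doublet scores). Of 156 named genes, 114 kept their direction and side of the threshold under all 15 alternatives and 33 lost their call under at least 1. Signs turned for Bmp4 (-0.69 without the block, -1.55 to 4.68 with each library left out) and Igfbp3 (-8.18 to 4.80 likewise). Among genes that had not passed the test, signs turned for Acvr2a (0.018 without the block), Efnb2 (-1.06 to 0.11) and Id3 (-0.034 to 1.29) with each library left out, Jag1 (-0.12 without the 5% highest doublet scores) and Timp3 (0.97 without the block, -2.07 to 1.47 with each library left out, of which 0.99 without P12 replicate 1). Of 3892 levels, 172 moved beyond their counting interval, 57 of them with at least 8 panel genes required. Thinned to 2000 UMIs, the share of endothelial cells with a cell cycle gene was 0% at P2, 16.7% in P12 replicate 1 and 38.7% in P12 replicate 2. Of 144 called named genes, 78 had a fold change that moved by over 1.5 times without at least 1 library (27 without P12 replicate 1, 52 without P12 replicate 2 and 34 without P22). A count of 0 in 56 cells allows a UMI in up to 5.36% of cells and does not limit how many express a gene, and 2 cells limit every P2 level.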
